A study of Mus musculus with 59 samples.

Results

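Chromatin modifiers and remodellers were described across the day and between the sexes in the medial prefrontal cortex of the mouse. Members were taken by symbol, from 13 families of names that cover histone demethylases (Kdm), methyltransferases (Kmt, Setd, Ehmt), acetyltransferases (Kat), deacetylases (Hdac, Sirt), remodelling complexes (Smarc, Arid, Chd), bromodomain proteins (Brd) and enzymes of DNA methylation (Tet, Dnmt). The table held 38 such genes among 4484, and all 38 passed the filter on low values. Dnmt and Ehmt genes were not analysed here. RNA came from homogenate tissue of adult wild-type C57BL/6J mice, an inbred strain, with no treatment or transgene named in the labels. Sampling was every 4 h over 24 h, from ZT2 to ZT22, which makes 6 times, and each time had 5 libraries of males and 5 of females, except 4 of females at ZT10. The 59 libraries were thus 30 of males and 29 of females. Zeitgeber time counts hours from lights on by convention, and ZT12 to ZT24 is called dark here, although the labels state no light schedule.

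Histone acetyltransferases and deacetylases add and remove acetyl groups on histone tails, and methyltransferases and demethylases do the same with methyl groups. SWI/SNF and CHD complexes use ATP to move nucleosomes, and TET enzymes oxidise methylcytosine in DNA. In the molecular clock, the activator pair CLOCK and BMAL1 recruits acetyltransferases, and the repressors PER, CRY and REV-ERB recruit deacetylases. Several of these enzymes are known from human and mouse studies as genes of intellectual disability, which is one reason for interest in them in the cortex.

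The 38 genes were 4 demethylases (Kdm2a, Kdm4a, Kdm5c, Kdm7a), 7 methyltransferases or SET-domain proteins (Kmt2d, Kmt2e, Kmt5c, Setd1b, Setd4, Setd7, Setdb1) and 6 acetyltransferases (Kat2a, Kat2b, Kat5, Kat6b, Kat7, Kat8). There were 5 deacetylases (Hdac2, Hdac3, Hdac4, Hdac8, Hdac11), 2 sirtuins (Sirt5, Sirt6) and 7 SWI/SNF subunits (Arid1a, Smarca2, Smarca4, Smarcb1, Smarcc2, Smarcd1, Smarcd3). Chd4, Arid3a, Arid4a, Brd8, Tet2 and Tet3 were also among the members.

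Promoter sequence is shown for genes that the later results return to. These are the 250 bases before the start of transcription, from RefSeq on GRCm38.p6, and capitals mark matches to 4 motifs searched on both strands. The motifs were the E-box CACGTG that CLOCK and BMAL1 bind, the D-box TTATGTAA, the full cAMP response element TGACGTCA and its half-site TGACG, which the full element contains. Kat5 (chr19:5610095-5610344, minus strand), an acetyltransferase of the TIP60 complex, was the one member with an E-box, where the last letters of a half-site overlap the first letters of the E-box. Kat8 (chr7:127912267-127912516, plus strand), a histone H4 acetyltransferase, had a half-site alone. For Kat5 and Kat8, which have another start in RefSeq, the window shown is that of the outer start. Kdm7a (chr6:39206774-39207023, minus strand), a histone demethylase, had none of the 4.
Kat5: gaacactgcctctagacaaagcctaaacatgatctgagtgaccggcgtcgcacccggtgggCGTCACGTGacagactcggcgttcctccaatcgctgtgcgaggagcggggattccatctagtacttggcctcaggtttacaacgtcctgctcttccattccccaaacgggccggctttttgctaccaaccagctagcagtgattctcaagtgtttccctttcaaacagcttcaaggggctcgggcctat
Kat8: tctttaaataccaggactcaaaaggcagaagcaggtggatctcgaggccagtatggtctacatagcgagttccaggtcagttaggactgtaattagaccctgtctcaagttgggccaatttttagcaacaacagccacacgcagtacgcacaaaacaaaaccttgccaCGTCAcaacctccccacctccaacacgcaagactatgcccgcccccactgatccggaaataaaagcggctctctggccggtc
Kdm7a: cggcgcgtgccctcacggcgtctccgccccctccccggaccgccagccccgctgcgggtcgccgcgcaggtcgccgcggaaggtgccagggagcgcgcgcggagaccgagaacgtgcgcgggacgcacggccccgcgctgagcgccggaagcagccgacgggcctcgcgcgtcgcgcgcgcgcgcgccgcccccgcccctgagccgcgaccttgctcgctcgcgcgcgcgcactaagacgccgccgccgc

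Of the 38 genes, 30 had a promoter in the RefSeq table. The E-box occurred in 1 of these 30 (3.33%), against 6.86% of 27025 genes. No member held the D-box (0.977% of all genes) or the full cAMP response element (1.77%). The half-site was in 10 of 30 (33.3%), against 19.8% of all genes, and the 10 were Chd4, Hdac11, Hdac4, Kat2a, Kat2b, Kat5, Kat7, Kat8, Kmt5c and Smarcd3. Such matches describe letters in this window and are not binding sites.

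The deposited values are log2 of a scaled read count plus 1. Libraries held between 6317420 and 13325019 reads in the table, with a median of 9015221, of which the 6 most abundant noncoding genes took a median of 77.85% (61.4% to 91.19%). The 38 genes together received 7077 to 44134 reads per library, with a median of 15598. Markers of cortical excitatory neurons (4 of 7 listed, Slc17a7 among them), inhibitory neurons (4 of 7), astrocytes (3 of 5) and microglia (2 of 5) were in the table. The listed markers of endothelial cells, striatal projection neurons, choroid plexus and blood were not analysed here. The libraries whose titles carry the serial numbers 49 to 60 differed from those numbered 1 to 48, so results are also given without them. In homogenate tissue, fewer cells of a type and less RNA per cell cannot be told apart.

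Levels were compared between genes as scaled reads per kilobase of exonic sequence, as the median over the 59 libraries. The highest was Hdac2 with 526.0, a class I deacetylase of the Sin3, NuRD and CoREST complexes. Kat6b, the MORF acetyltransferase, followed with 493.0, and Hdac11, the sole class IV deacetylase, with 470.9. The lowest were Kmt5c with 6.1, a histone H4 methyltransferase of heterochromatin, Arid3a with 10.5, a DNA-binding ARID protein, and Tet2 with 14.3. Kmt5c had a median of 8 recovered reads per library and none in 1 library, and Arid3a had a median of 20 reads, so counting error is large for both. Smarcd3 shares 48.2% of its exonic bases with genes on the opposite strand, Hdac4 22.4%, Hdac11 17.9%, Smarcd1 12.7% and Kat5 12.1%. The strand setting of the counting is not given in the sources used here, so reads of these overlaps may belong to either gene.

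No gene among the 38 members passed the test for a daily rhythm. A 24 h cosine was fitted to each gene in all 59 libraries with sex as a covariate (limma, Benjamini-Hochberg adjustment over 4273 genes, threshold 0.05). None of the 38 genes passed, against 1.9% of all genes tested, and 1 of 38 had an unadjusted p under 0.05, against 11.4% of all genes. With limma voom on the recovered reads none passed either (2.11% of all genes). Then 2 had an unadjusted p under 0.05, against 530 of all 4273 genes. The median of the log2 amplitudes, each measured from mean to peak, was 0.06 for the members and 0.08 for all genes.

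**Figure D1:**
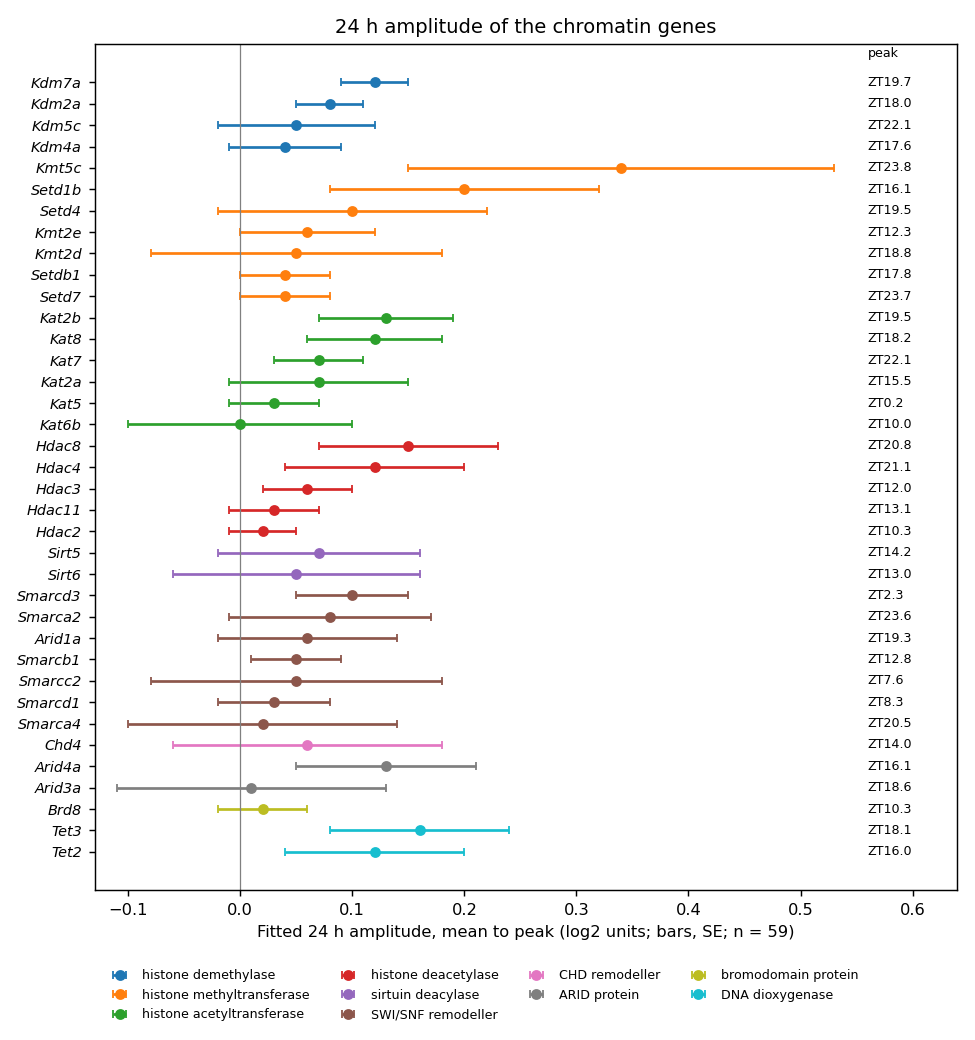
Fitted 24 h amplitude of 37 of the 38 genes (points, log2 units; bars, SE; n = 59 libraries), grouped by family, with the fitted peak in zeitgeber hours at the right. Amplitudes run up to 0.34 for Kmt5c, which also has the widest SE (0.19), and Kdm7a at 0.12 has an SE of 0.03.

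Kdm7a (chromosome 6, 39136623 to 39206789, minus strand, GRCm38), which removes methyl groups from histone H3, had the smallest p. Its log2 values had a lowest, median and highest of 10.28, 10.91 and 11.28 at ZT2, 10.49, 10.76 and 10.96 at ZT6, and 10.56, 10.71 and 11.05 at ZT10. In the dark they were 10.70, 10.85 and 11.02 at ZT14, 10.61, 11.07 and 11.28 at ZT18, and 10.53, 10.92 and 11.07 at ZT22. Values were lowest in the middle and late light and highest at ZT18, and the ranges of all 6 times overlapped. The means ran from 10.72 ± 0.15 (SD, n = 9) at ZT10 to 11.04 ± 0.18 (n = 10) at ZT18. The fitted amplitude was 0.12 ± 0.03 (SE, n = 59) with a peak at ZT19.7, a trough-to-peak ratio of 1.19, and did not pass (p = 0.00275, adjusted p = 0.0961, limma, Benjamini-Hochberg). It passed the threshold without ZT22 male replicate 1 (adjusted p = 0.0363, limma), without replicate 4 of the ZT18 males (0.0444) and without replicate 4 of the ZT22 males (0.0483). Over all 59 single omissions the adjusted p ran from 0.0363 to 0.156.

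Among the other demethylases, Kdm2a, which removes methyl groups from histone H3 at CpG islands, had 0.08 ± 0.03 at ZT18.0 (adjusted p = 0.557, limma). Of the acetyltransferases, Kat8 had 0.12 ± 0.06 at ZT18.2 (adjusted p = 0.554, limma), Kat2b, known as PCAF, 0.13 ± 0.06 at ZT19.5, and Kat7, known as HBO1, 0.07 ± 0.04 at ZT22.1. Tet3, which oxidises methylcytosine, had 0.16 ± 0.08 at ZT18.1 (adjusted p = 0.626, limma). None of these amplitudes passed the threshold, and their fitted peaks lay in the dark.

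The remaining genes of smallest p had adjusted p of 0.632 or more (limma). Smarcd3, a SWI/SNF subunit known from heart and muscle, had 0.10 ± 0.05 and the one light-phase peak of this group, at ZT2.3. Among deacetylases, the class I enzyme Hdac8 had 0.15 ± 0.08 at ZT20.8, and Hdac3, the catalytic subunit of the NCoR complex that REV-ERB recruits, had 0.06 ± 0.04 at ZT12.0. Among methyltransferases, Setd1b, which methylates histone H3 at promoters, had 0.20 ± 0.12 at ZT16.1, and Kmt5c 0.34 ± 0.19 at ZT23.8. Without ZT10 male replicate 3 the amplitude of Kmt5c was 0.21, and without numbers 49 to 60 it was 0.52. Arid4a, a partner of the retinoblastoma protein, had 0.13 ± 0.08 at ZT16.1. The SEs of Hdac3, Setd1b, Kmt5c and Arid4a are over 0.5 of their amplitudes, and those of Hdac8 and Smarcd3 are near 0.5.

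A test for any difference between the 6 times, free of a cosine shape, called none of the 38 genes (1.05% of all genes; limma). At an unadjusted p under 0.05 there were 2, against 9.76% of all genes. Voom called none (1.29% of all genes) and gave 1 at an unadjusted p under 0.05, against 454 of all 4273 genes. The 2 were Kdm7a, whose fitted time means spanned 0.32 from ZT10 to ZT18 (adjusted p = 0.21, limma), and Tet3, which spanned 0.55 from ZT2 to ZT18 (adjusted p = 0.489, limma). Tet3 averaged 9.17 ± 0.62 at ZT2 and 9.72 ± 0.36 at ZT18 (SD, n = 10 each), with ranges of 8.34 to 10.07 and 9.15 to 10.33 that overlap. Next by p were Kat7 with a span of 0.28, Kmt5c with 1.18 and Hdac11 with 0.21, at adjusted p of 0.544 or more (limma).

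Levels in the dark were set against the light by equally weighted time means, with ZT14, ZT18 and ZT22 as dark. None of 38 genes passed (0.749% of all genes; limma). At an unadjusted p under 0.05 there were 3, against 8.42% of all genes. With voom none passed (0.842% of all genes) and 3 had an unadjusted p under 0.05, against 409 of all 4273 genes. Without passing the test, 30 of 38 fitted differences were above 0, against 49.7% of all genes, with a median of 0.04 and a range of -0.07 to 0.21. Likewise 31 of the 38 fitted peaks lay from ZT12 to ZT24, against 49.4% of all genes. These genes share libraries, so their directions are not independent of each other.

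Kdm7a had a lowest, median and highest value of 10.53, 10.97 and 11.28 in the dark, against 10.28, 10.78 and 11.28 in the light. The difference was 0.13 ± 0.05 (SE; adjusted p = 0.271, limma), with ranges that overlap almost fully. Kat8 had 7.71, 8.21 and 9.03 in the dark, against 7.30, 8.14 and 8.49 in the light, a difference of 0.18 ± 0.08 (adjusted p = 0.473, limma). Kdm2a averaged 10.98 ± 0.14 in the dark (SD, n = 30) and 10.87 ± 0.21 in the light (n = 29), a difference of 0.11 ± 0.05 (adjusted p = 0.487, limma). Tet3 differed by 0.20 ± 0.11 (adjusted p = 0.635, limma) and Hdac8 by 0.17 ± 0.12 (adjusted p = 0.783, limma).

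Serial numbers run through the 12 groups once in every 12, which gives 5 runs that each hold all times and both sexes, with number 54 absent. A higher mean in the dark than in the light in all 5 runs was seen in 4 of 38 members, against 5.64% of all genes. They were Kdm7a, Kat8, Kdm2a and Tet3, which also had the smallest p for dark minus light. The runs divide the same libraries, so this is not separate evidence. For Kdm7a the 5 differences ran from 0.08 to 0.20, for Kat8 from 0.12 to 0.30, for Kdm2a from 0.07 to 0.17 and for Tet3 from 0.11 to 0.27. Smarcd3 was lower in the dark in all 5, as were 5.1% of all genes, by -0.02 to -0.14.

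**Figure D2:**
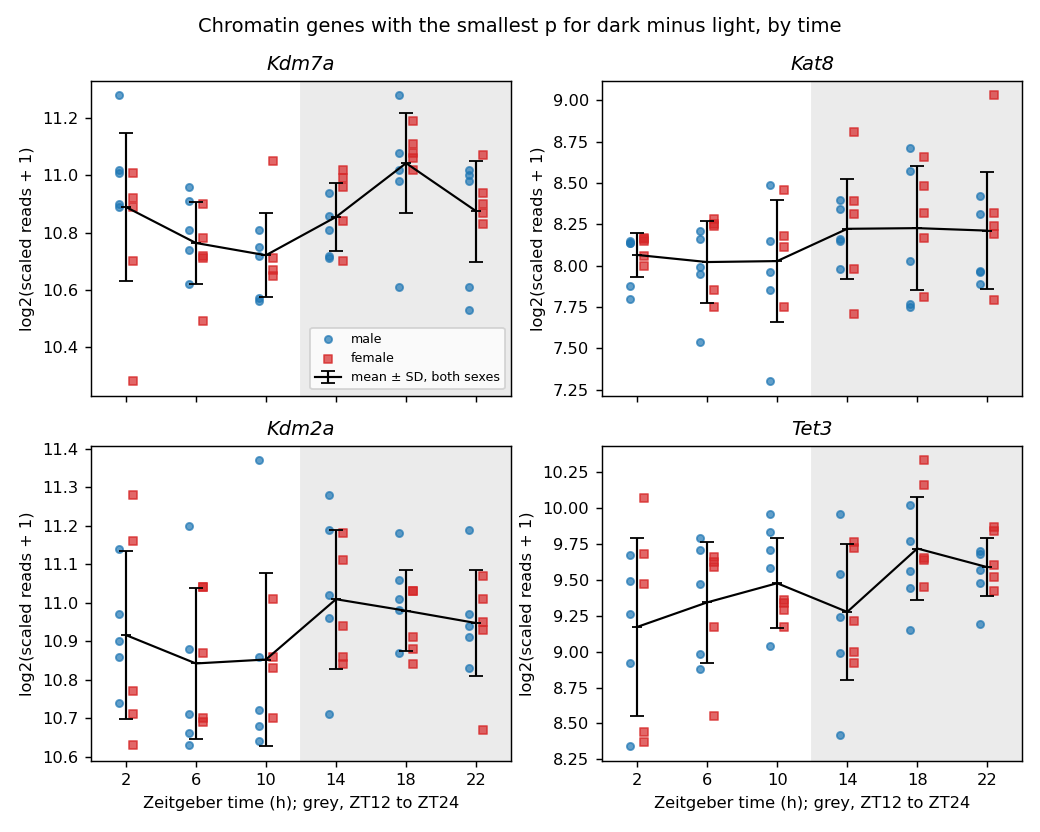
Log2(scaled reads + 1) of Kdm7a, Kat8, Kdm2a and Tet3 in every library by zeitgeber time (circles, males; squares, females; line and bars, mean ± SD of both sexes; n = 10 at each time and 9 at ZT10; grey, ZT12 to ZT24). Kdm7a has its lowest mean, 10.72, at ZT10 and its highest, 11.04, at ZT18, and the points of all times overlap in each panel.

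These calls depended on how variation shared by the libraries was handled. With the first 2 principal components as covariates, 4 members were called for the 24 h rhythm, which are Kdm2a, Kdm7a, Smarca2 and Tet3, against 11.7% of all genes under that setting. Kdm7a then had an amplitude of 0.12 (adjusted p = 0.00623, limma), Tet3 of 0.16 (0.0138) and Kdm2a of 0.08 (0.0239). For dark minus light the same setting called Kdm2a, Kdm7a and Tet3, against 4.91% of all genes, and for any time Kdm7a and Tet3, against 6.79%. The lean to the dark was then smaller, with 25 of 38 differences above 0, against 49.9% of all genes. From ZT12 to ZT24 lay 25 of 38 peaks, against 49.3%. Other scalings gave larger counts than the 30 of 38 on the deposited scale. Scaled by library totals 34 of 38 differences were above 0, and 32 with totals that leave out the 6 noncoding genes. The median difference of all genes was then 0.01 under each, against 0 on the deposited scale.

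Between the sexes, Kdm5c had the smallest p among the chromatin genes. The comparison of males minus females held the 6 times as a factor, and none of the 38 genes passed (0.0234% of all genes, which is 1 gene; limma). Kdm5c alone had an unadjusted p under 0.05, against 2.43% of all genes. With voom none passed (0.0234% of all genes) and Kdm5c alone had an unadjusted p under 0.05.

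Kdm5c (chromosome X, 152233020 to 152274535, plus strand, GRCm38) encodes a demethylase of histone H3 at promoters and enhancers and is a gene known to escape X inactivation in mouse and human. It had a lowest, median and highest value of 8.54, 9.42 and 10.16 in the 30 males, against 8.99, 9.81 and 10.49 in the 29 females. Males lay lower as a group and the ranges overlapped. Males averaged 9.42 ± 0.39 (SD, n = 30) and females 9.83 ± 0.40 (n = 29). The fitted difference of -0.41 ± 0.10 (SE, n = 59) ranked 2 of 4273 by p and did not pass (p = 0.000112, adjusted p = 0.213, limma). On the linear scale males had 0.751 of the level in females.

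The difference had the same sign at all 6 times, at -0.30, -0.24, -0.13, -0.60, -0.76 and -0.41 from ZT2 to ZT22. At ZT18 males had 9.67, 9.36, 9.30, 9.19 and 9.72, against 10.07, 10.13, 10.19, 10.47 and 10.19 in females. Every male at ZT18 lay below every female there, which held for no other member at that time and for 0.491% of all genes. ZT18 was the time of the largest difference, and at every other time the sexes overlapped for Kdm5c. Kdm5c was also lower in males in all 5 runs, by -0.28 to -0.71, as were 2.67% of all genes. Members lower in males at every time were Kdm5c and Kat8, against 1.05% of all genes. Times and runs divide the same libraries as the fitted difference, so these signs are not separate evidence.

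**Figure D3:**
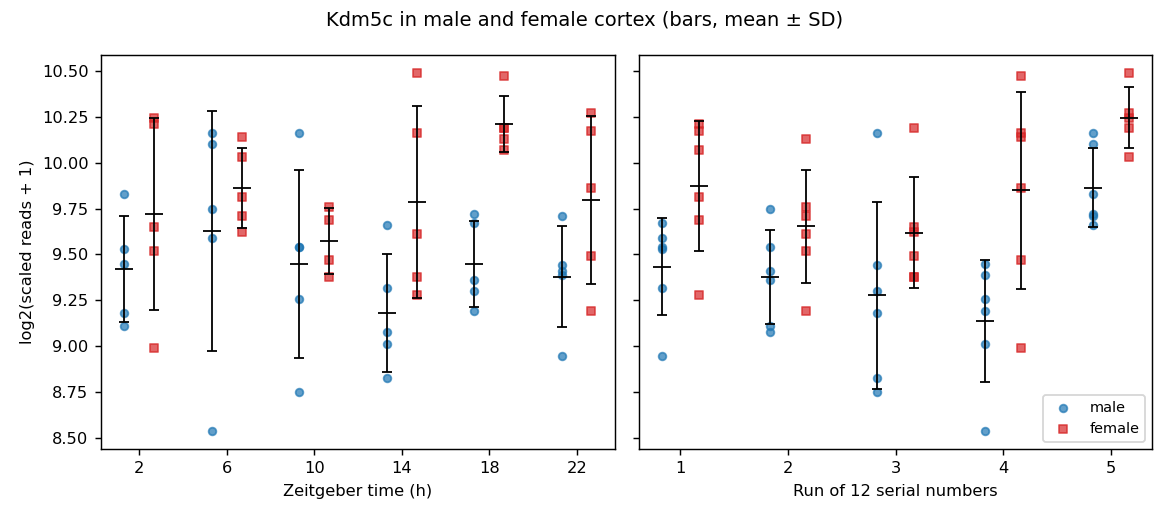
Log2(scaled reads + 1) of Kdm5c in each library (circles, males, left of each pair; squares, females; bars, mean ± SD), by zeitgeber time on the left and by run of 12 serial numbers on the right. The male mean lies below the female mean at all 6 times and in all 5 runs, and at ZT18 the points of the sexes do not overlap.

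The call for Kdm5c turned on the setting. With the run of 12 serial numbers as a block it passed (limma), as did 0.0468% of all genes. With the first 2 principal components as covariates the difference was -0.37 and passed (adjusted p = 3.56e-09, limma), as did 0.0702% of all genes. Without numbers 49 to 60 it was -0.44 (adjusted p = 0.0746, limma), and over 59 single omissions the adjusted p ran from 0.0535 to 0.418.

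The other members of smallest p had an adjusted p of 0.999 (limma). Arid3a differed by -0.27 ± 0.17 (SE), Kat8 by -0.12 ± 0.08 and Kat5 by -0.08 ± 0.06, males minus females. Smarcc2 differed by -0.20 ± 0.19, Kmt2d by -0.17 ± 0.18 and Setd1b by -0.15 ± 0.18, and the mitochondrial deacylase gene Sirt5 by -0.11 ± 0.12. With the 2 principal components Smarcc2 was at -0.12 and Kmt2d and Setd1b at -0.07 each, and Setd1b was at -0.08 without ZT2 male replicate 3. Without passing, 29 of 38 fitted differences were below 0, against 49.8% of all genes, with a median of -0.03. That count was 22 when values were scaled by library totals, 26 with totals that leave out the 6 noncoding genes and 20 with the 2 principal components. The median difference of all genes was 0.02 and 0.01 under those 2 scalings. With the principal components 49.9% of all genes were above 0.

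Whether the daily course differed between males and females was tested with the interaction of sex with the cosine and sine. No member and no other gene passed (0% of all genes; limma), and at an unadjusted p under 0.05 there were 3 members, against 4.21% of all genes. Voom called none (0% of all genes) and gave 4 at an unadjusted p under 0.05, against 260 of all 4273 genes. The 3 were Hdac3, with a difference in the fitted 24 h course of 0.23 ± 0.08 (SE), Setd7, a histone H3 monomethyltransferase, with 0.18 ± 0.07, and Arid1a, the ARID subunit of SWI/SNF, with 0.40 ± 0.15, each at an adjusted p of 0.741 (limma). With the 2 principal components these differences were 0.14, 0.11 and 0.15, and no member had an unadjusted p under 0.05. Hdac3 peaked at ZT16.2 with an amplitude of 0.13 ± 0.05 in males and at ZT8.2 with 0.14 ± 0.06 in females.

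Within males none of the 38 genes passed (0.164% of all genes; limma). At an unadjusted p under 0.05 there were 2, against 7.54% of all genes. Voom called none (0.234%) and gave 2, against 338 of all 4273 genes. The 2 without voom were Kat2b, with an amplitude of 0.23 ± 0.09 at ZT18.7, and Hdac3. Within females none passed (0.328% of all genes; limma). At an unadjusted p under 0.05 there was 1, against 8.89% of all genes. Voom called none (0.398%) and gave 2, against 447 of all 4273 genes. The 1 without voom was Kdm7a, with 0.17 ± 0.05 at ZT18.0 (adjusted p = 0.243, limma). Fitted peaks from ZT12 to ZT24 were counted for 17 of 38 genes in males, against 51.3% of all genes, and for 33 of 38 in females, against 48.2%. With the 2 principal components these counts were 25 in males and 27 in females, against 50.6% and 48.1% of all genes. The difference between these counts was not tested.

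Among the chromatin genes, fitted differences between runs of libraries ranged more widely than those for dark minus light or between the sexes. They ran from -0.87 to 1.27, against -0.07 to 0.21 for dark minus light and -0.41 to 0.12 for males minus females. The span from the lowest to the highest time mean reached 1.18, for Kmt5c. Some members, Kdm7a among them, had a time span above their run difference. Such a span is taken over all times, so it is not directly comparable with a difference between groups. Libraries numbered 49 to 60 (11 libraries) were set against those numbered 1 to 48 (48 libraries) with time and sex as covariates. This is a description without p, since the split was known from earlier work on these data, and the labels do not say what the serial number stands for. The median difference was 0.26 over the members, from -0.87 to 1.27, and -0.05 over all genes. Differences above 0.5 were seen in 13 of 38 members, against 10.6% of all genes, and below -0.5 in 3 of 38, against 10.2%.

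All 7 SWI/SNF genes, with a median of 0.68, lay higher in numbers 49 to 60, against 28 of 38 members and 44.2% of all genes. The 2 Tet genes, Arid3a and Arid4a also lay higher in those libraries. Smarcc2, a core scaffold subunit, had a lowest, median and highest of 11.54, 11.82 and 12.37 there, against 9.43, 10.51 and 11.81 in numbers 1 to 48. The ranges overlapped little, and the means were 11.90 ± 0.28 (SD, n = 11) and 10.65 ± 0.60 (n = 48), a fitted difference of 1.27 or 2.41-fold. The alternative ATPases Smarca4 and Smarca2 differed by 0.98 and 0.81, Arid1a by 0.68, Smarcd1 by 0.37, the core subunit Smarcb1 by 0.28 and Smarcd3 by 0.13.

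Smarcd3 was the exception in this family, since its runs differed in another way. Its mean was 10.57 ± 0.12 in run 1 and 10.05 ± 0.25 in run 4 (SD, n = 12 each), and 10.39 ± 0.22 in run 5 (n = 11). The 5 runs accounted for 42.5% of its variance, against 26.3% for the median member. The last run alone accounted for 3.3%, against 20.2%. These shares are not adjusted for the number of groups compared.

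Among histone methyltransferases the differences went both ways. Setd1b lay higher by 1.10, with 8.62, 9.23 and 9.73 in numbers 49 to 60, against 6.35, 8.21 and 9.44 in numbers 1 to 48. Kmt2d, which methylates histone H3 at enhancers, lay higher by 1.06, with 10.59, 11.21 and 11.76, against 9.05, 10.05 and 11.68 in numbers 1 to 48. Kmt5c lay lower by -0.85 and Setd4 by -0.87. Kat6b also lay lower by -0.87, with 11.96, 12.27 and 12.57 in numbers 49 to 60, against 11.95, 13.12 and 14.23 in numbers 1 to 48. The later libraries all lay in the lower part of the range of the earlier ones.

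Chd4, the ATPase of the NuRD complex, differed by 0.98, and Brd8, a bromodomain protein of the TIP60 complex, by 0.24. The demethylase Kdm5c differed by 0.52 and Kdm4a by 0.42, and Kdm7a, the gene of smallest rhythm p, by 0.10. Deacetylases spread around 0, from -0.35 for Hdac8 to 0.66 for Hdac4, with Hdac2 at -0.07.

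**Figure D4:**
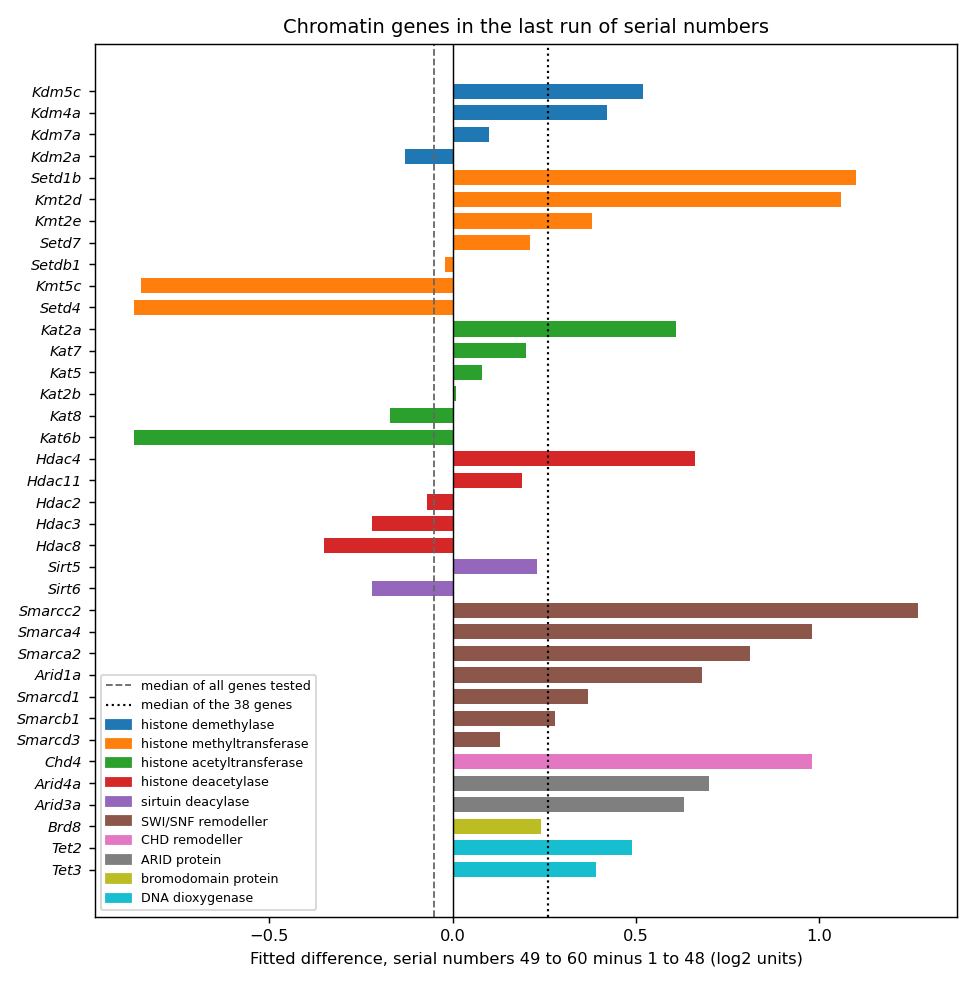
Fitted difference of 37 of the 38 genes between libraries numbered 49 to 60 and 1 to 48 (bars, log2 units, numbers 49 to 60 minus 1 to 48), coloured by family. Bars run from -0.87 for Setd4 and Kat6b to 1.27 for Smarcc2, and the dotted line, the median of the 38 genes at 0.26, lies right of the dashed line, the median of all genes at -0.05.

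Averaged over the 38 genes, a library's deviation from the overall mean was 0.23 ± 0.11 (SD, n = 11) in run 5, and -0.05 ± 0.16 (n = 48) in runs 1 to 4. For the 7 SWI/SNF genes it was 0.52 ± 0.16 in run 5 and -0.12 ± 0.32 in runs 1 to 4, with ranges of 0.27 to 0.76 and -0.80 to 0.52 that overlap. For the median member the last run accounted for 20.2% of the variance, time for 6.8% and sex for 0.3%. Over all genes these medians were 10.1%, 8.9% and 0.6%. The shares are not adjusted for the number of groups compared, so the 6 times take more by chance than the sexes or the last run. Kdm7a was unlike the median member, with 27.1% for time and 4.8% for the last run, and Kdm5c had 22.2% for sex and 20.1% for the last run.

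**Figure D5:**
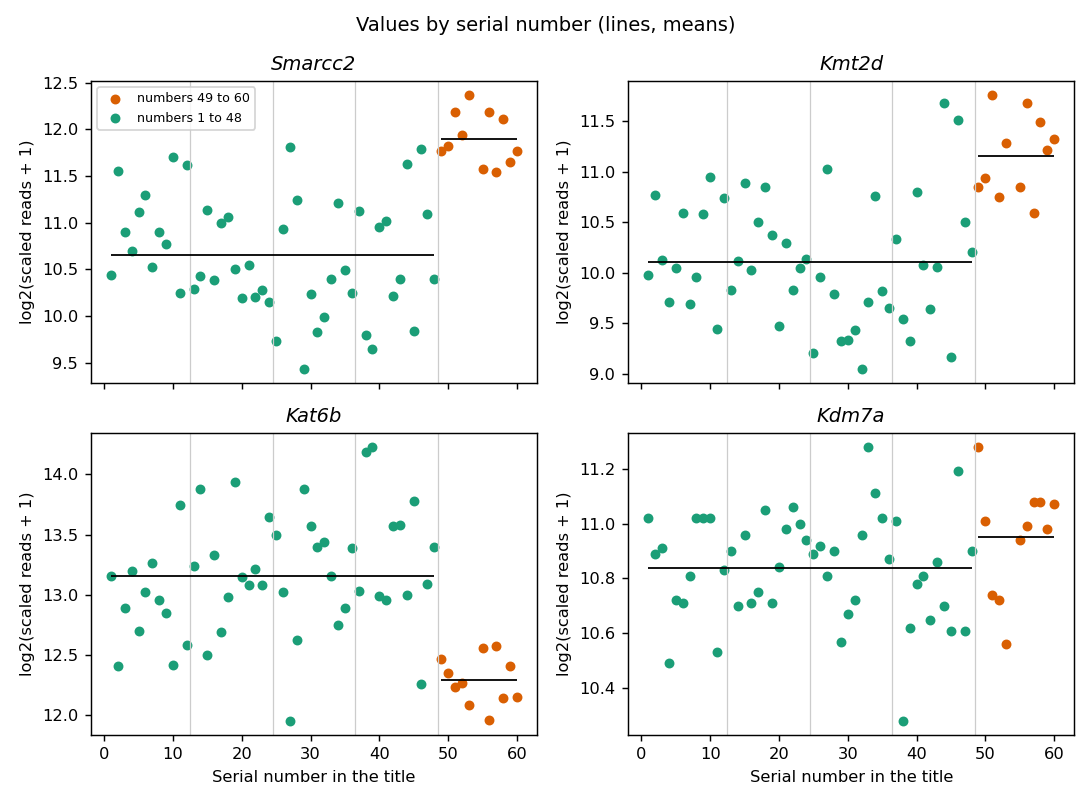
Log2(scaled reads + 1) of Smarcc2, Kmt2d, Kat6b and Kdm7a in each library by the serial number in its title (orange, 49 to 60; green, 1 to 48; black lines, means; grey lines, borders of the runs of 12). Smarcc2 averages 11.90 in numbers 49 to 60 and 10.65 in numbers 1 to 48, Kat6b 12.29 and 13.16, and Kdm7a 10.95 and 10.84.

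Some library properties also differed between numbers 49 to 60 and 1 to 48, with ranges that overlapped. The 6 noncoding genes took 61.4% to 78.57% of reads in numbers 49 to 60 (median 70.93%), against 62.0% to 91.19% in numbers 1 to 48 (median 79.53%). The summed level of the 4 excitatory markers was 15.20 to 15.46 on the log2 scale in numbers 49 to 60, against 14.59 to 15.28 in numbers 1 to 48. Inhibitory markers summed to 12.09 to 12.55, against 11.79 to 12.75 in numbers 1 to 48, and astrocyte markers to 13.08 to 14.18, against 12.45 to 14.18. The later ranges of these 2 sums lay within the earlier ones, with medians of 12.27 against 12.11 and 13.95 against 13.86. The 2 microglial markers summed to 9.05 to 10.14 in numbers 49 to 60, against 9.35 to 10.66 in numbers 1 to 48. Across genes, the run difference was larger in genes of greater exonic length (Spearman rho 0.43 over the 38 members and 0.29 over 4258 genes) and of higher GC content (0.30 and 0.25), a description over genes that share libraries. In genes of 2000 to 4000 exonic bases the median difference was 0.08 for 5 members and -0.11 for all 1223 genes. From 4000 to 6000 bases it was 0.13 for 13 members and 0 for all 1039 genes. In genes of 6000 to 10000 exonic bases the median difference was 0.52 for 7 members and 0.03 for all 975 genes. In genes over 10000 exonic bases the median difference was 0.39 for 13 members and 0.15 for all 453 genes. The part of these properties in the run difference was not tested.

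The size of the run difference depends on the scaling. Scaled by library totals, the median over all genes was 0.38 and over members 0.70, with 35 members above 0, against 28 on the deposited scale. The members' median lay 0.31 to 0.32 above that of all genes under each of the 3 scalings, and 29 members lay above it each time. A scaling shifts all genes of a library by nearly the same amount, so it could hardly change this gap or count.

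Other genes of chromatin complexes were taken from 6 lists with 205 genes, of which 68 were in the table and tested. For the 24 h rhythm 3 of these 68 passed, against 1.9% of all genes, and 10 had an unadjusted p under 0.05, against 11.4%. Their median amplitude was 0.06. Levels were higher in the dark for 44 of 68 and lower in males for 40 of 68, against 49.7% and 49.8% of all genes, and the median run difference was -0.01, with 8 of 68 above 0.5.

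Rbbp5, a core subunit shared by the Kmt2 and Setd1 methyltransferase complexes, averaged 9.75 ± 0.22 at ZT14, its lowest mean, and 10.08 ± 0.21 at ZT22, its highest (SD, n = 10 each). The fit gave a level that was highest late in the dark, with an amplitude of 0.15 ± 0.03 (SE, n = 59) and a peak at ZT23.1 (adjusted p = 0.0113, limma). Gadd45b, an activity-induced gene tied to DNA demethylation, averaged from 6.27 ± 0.77 at ZT6 to 7.26 ± 0.66 at ZT14, with an amplitude of 0.50 ± 0.11 at ZT14.9 (adjusted p = 0.0118, limma). Prmt8, an arginine methyltransferase of brain, averaged from 10.75 ± 0.16 at ZT2 to 11.02 ± 0.13 at ZT14, with 0.11 ± 0.03 at ZT13.2 (adjusted p = 0.0246, limma). Without numbers 49 to 60 the call for Rbbp5 held (0.0455), and those for Gadd45b (0.0615) and Prmt8 (0.0753) ended. The call for Prmt8 also ended without ZT2 female replicate 3 (0.0515), ZT14 male replicate 1 (0.0561) or ZT14 female replicate 1 (0.0501). Scaled by library totals all 3 calls ended, with adjusted p of 0.518 or more (limma).

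The next genes of each list did not pass. Kansl3, of the complex that holds Kat8, had an amplitude of 0.16 ± 0.04 at ZT20.9 (adjusted p = 0.102, limma), and Morf4l2, of the TIP60 complex of Kat5, 0.08 ± 0.02 at ZT5.7. The CoREST genes Rcor2 and Rcor1 had 0.26 ± 0.08 and 0.06 ± 0.05. Of remodellers, Hells had 0.32 ± 0.09 at ZT9.9 and Ercc6 0.12 ± 0.04 at ZT14.8. The reader Zmynd8 had 0.15 ± 0.06, and the replacement histones H2afv and H2afy2 had 0.11 ± 0.06 and 0.11 ± 0.08. In the tests of any time, dark minus light, males minus females and sex by rhythm, and in each sex alone, none of the 68 passed (limma). At an unadjusted p under 0.05 there were 5, 5, 0 and 3 in those tests, 5 in males alone and 8 in females alone. Of all genes, 9.76%, 8.42%, 2.43% and 4.21% had such a p in those tests, 7.54% in males and 8.89% in females.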

How the data were processed

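RNA was measured in 59 libraries of homogenate medial prefrontal cortex. The labels name a stranded total RNA kit, and the submitters' processing notes name FastQC, HTSeq, DESeq2 and GRCm38. The aligner and strand setting are not given in the sources used here. The deposited values are log2 of a scaled read count plus 1, as the values show. Undoing the log gave whole reads times 1 factor in each library, with gaps of at most 0.00038 to a whole number for genes below 100000 reads. Recovered reads served for depth, for the filter (at least 10 reads in at least 4 libraries, 4273 genes) and for voom.

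The log2 values were fitted with limma 3.58.1 in R 4.3.3 (intensity trend, robust), with Benjamini-Hochberg adjustment over the 4273 genes. The fit was tried on simulated data with independent noise. That noise held no differences between runs, so it cannot show how the fit handles variation shared by libraries. A count model was not used, since the deposited unit is log2. Of 4484 genes, 4465 had a symbol in GENCODE M21. Read numbers speak for counting error only, as PCR reads are not independent molecules, and SEs come from the spread between libraries.

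Groups came from the titles, and the replicate number is the run of 12 serial numbers. Animal numbers in the titles repeat within groups, and the labels do not say whether a repeated number is 1 mouse. Libraries were taken as separate animals. If a repeated number is 1 mouse, there were fewer mice than libraries and p-values are too small. No 2 libraries of a group were copies (lowest chi-square per degree of freedom 10.6 over 116 pairs). Alternatives were other filters, scalings and pseudocounts (5 in place of 1), voom, a replicate block, 2 principal components, and leaving out libraries. Members and lists were chosen with earlier results of these data known. Named were called genes, the 12 members of smallest p for the rhythm, 8 for sex, 5 for dark minus light and for any time, 3 for sex by rhythm, 3 at each end of level and of run difference, and 2 of each list, while Smarcd3 in the runs and others named there were chosen after their values were seen. Some items are not reported here, and 1 member is left out of the figures while it stays in the counts.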

Additional observations from a re-analysis of the deposited data

Results flagged for a closer look

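Kdm7a in the ZT10 female library of replicate 2 had a log2 value of 11.05, far from the other 3 libraries of that group, the nearest of which had 10.71. The gap was 0.85 of the range of the group. This was 1 of 72 groups examined for single libraries far from the rest, and chance gives about 1 in 20. The value lies at a time when Kdm7a was otherwise low, and leaving out single libraries is covered by the range of adjusted p given for this gene.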

How the results depend on the processing

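The count of called members stayed at 0 for all 7 tests under no filter, the filter at 20 reads in 0.5 of the libraries, both other scalings, pseudocount 5, voom and the fits without numbers 49 to 60. With the 2 principal components it was 4 for rhythm, 2 for any time, 3 for dark minus light and 1 for sex, and all-gene calls were 499, 290, 210 and 3, and 2.86% of genes in males and 2.83% in females. On the deposited scale without these components all-gene calls were 81, 45, 32 and 1. There were 7 in males, 14 in females and 0 for sex by rhythm.

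The replicate block called 1 member for sex, Kdm5c (-0.43, adjusted p = 0.00911, limma), and 2 genes in all, with 91 genes for any time and 15 in males. Deviations of same-numbered libraries of other groups correlated at a mean of 0.11 (319 pairs, -0.49 to 0.60, 148 of them over 0.1), against -0.03 for other numbers. Not every pair was over 0.1 and the labels tie nothing to the number, so it was not taken as a pairing. That 26 of 59 libraries correlated best with their own number is a hint from the data, not the design.

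Scaled by library totals, all-gene calls were 3 for rhythm, 2 for any time, 5 for dark minus light, 0 for sex, and 1 in males and 1 in females. With totals that leave out the 6 noncoding genes there were 12 in males. Without numbers 49 to 60, which means fewer libraries, calls were 50, 26 and 14, with 4 in males and 5 in females. In numbers 49 to 60 alone there were 0 for rhythm, 1 for dark minus light and 0 for sex. There the peak of Kat8 moved to ZT2 (amplitude 0.04) and that of Kmt5c to ZT13.6 (0.32), and Kat5 was higher in males by 0.04. The cause was not tested. Leaving out 1 library gave 0 to 1 called members for rhythm and 0 for the other tests, and all-gene counts of 74 to 96, 33 to 56, 27 to 38 and 1 for sex, 4 to 11 in males and 9 to 17 in females.

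A sex or dark-light difference carried a median SE of 0.11 over the members, from 0.04 up to 0.26 for Kmt5c, the member of fewest reads, which could not be tested under the filter at 20 reads.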
